A study of Mus musculus with 12 samples.

Results

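The genes described here encode matrix metalloproteinases (MMPs), ADAMTS proteases and the tissue inhibitors of metalloproteinases (TIMPs). They were taken from the deposited expression table by name, as every protein-coding gene called Mmp, Adamts or Timp followed by its number. This gave 45 of the 55862 genes in the table, of which 22 were MMPs, 19 were ADAMTS enzymes and 4 were TIMPs. Mmp1a also bore such a name but was annotated as a polymorphic pseudogene and was left out. RNA of 12 mouse samples was compared, 3 in each of 4 groups. The labels give the strain C57BL/6 for all of them, while the methods of the study give C57BL/6 for the astrocytes and C57BL/6J for both NPC groups. ASTs were astrocytes cultured in serum from the cortex of newborn mice and taken at day 0 of incubation as the negative control. A-iSCs were the same kind of culture after 5 days as spheres on agarose. The positive controls were P56-NPC, a cell suspension dissociated from the subependymal zone at postnatal day 56, and P0-NPC, a suspension dissociated from the hippocampus at postnatal day 0. No sorting of the NPC suspensions is described, so each may hold the other cells of its tissue, and the labels do not say whether replicates came from separate cultures or animals. The p-values therefore measure only the spread between these samples, which may be technical.

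MMPs and ADAMTS enzymes are zinc proteases that work outside the cell or at its surface. MMPs cut collagens, gelatin, laminin, elastin and many surface proteins, while ADAMTS enzymes mainly cut proteoglycans, procollagens and proteins of the microfibrils. TIMPs bind the active site of these enzymes and block it, so that the turnover of the matrix depends on the level of both. In the brain, the substrates include the chondroitin sulphate proteoglycans of the lecticans, such as brevican and neurocan, the basement membrane of the vessels, and the matrix of the stem cell niche.

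Expression was given as FPKM, the number of fragments corrected for the length of the gene and the size of the library, so levels can be set side by side between genes. The total per sample lay between 17077780 and 24452419 fragments. A count of 3 fragments, the limit that a count of 0 allows, was worth 0.103 to 0.187 FPKM for a gene of 1 kilobase. Such limits cover counting error only. Mitochondrial genes took 16.5% to 17.6% of the fragments in P56-NPC and 2.94% to 7.03% in the other groups. The summed FPKM of 8 astrocyte markers was 143 to 161 in ASTs and 1211 to 2466 in A-iSCs, so the group labelled as astrocytes was low in them, with Gfap at 29.9 ± 2.304 FPKM (SD, n = 3) against 970.0 ± 448. Of the progenitor markers, Sox2 was at 107 FPKM in P56-NPC and 84.5 in P0-NPC, and Nes at 3.76 and 26.9, all below the means of 135 and 196 FPKM in ASTs. Since the samples were bulk RNA, fewer cells of a type and less RNA per cell cannot be told apart in any of the results that follow.

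Every group expressed members of all 3 classes, but the leading genes differed between groups. ASTs were led by Timp2, Timp1, Mmp14, Adamts1 and Timp3, all with a mean of at least 49.9 FPKM. In A-iSCs the leading genes were Timp2 at 128, Timp1 at 41.7 and Mmp14 at 38.3 FPKM. P56-NPC was led by Timp2 at 59.9, Adamts4 at 38.9 and Timp4 at 28.3 FPKM. P0-NPC was led by Timp2 at 76.997, Mmp14 at 22.7 and Mmp24 at 18.6 FPKM. The highest group mean of a member lay in ASTs for 13 genes, in A-iSCs for 5, in P56-NPC for 5 and in P0-NPC for 20. For 2 genes, Mmp1b and Mmp20, no fragment was counted in any sample. The counts hold Mmp7, Adamts13 and Mmp21, which were too low in every group to be ranked, and Mmp8, whose means in P0-NPC and A-iSCs were within their spread. The 20 genes counted for P0-NPC included 12 of the 19 ADAMTS enzymes. A-iSCs were the highest group for no ADAMTS enzyme and no TIMP. They were highest for the 5 MMP genes Mmp11, Mmp12, Mmp13, Mmp19 and Mmp27, in each of which the 3 A-iSCs samples lay above the other 9. Mmp27 rested on 7 to 9 fragments in each A-iSCs sample and 1 or 2 in each AST sample. The share of all genes with 1 group above the rest was not taken, so nothing is drawn from these counts.

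**Figure D1:**
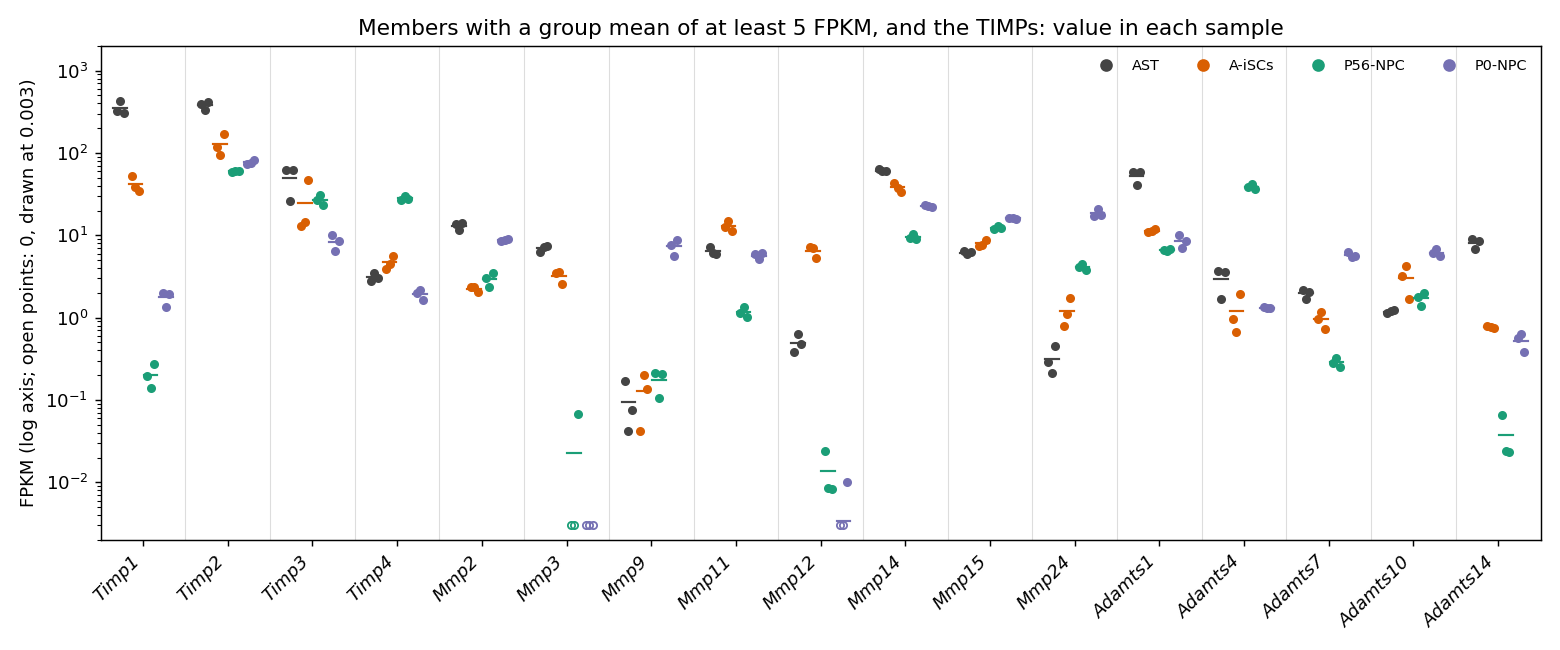
Expression in FPKM on a log axis for the 4 TIMPs and for the 13 other members with a mean of at least 5 FPKM in a group, with a point for each of the 3 samples of a group, a line at the group mean and open points for values of 0. Timp1 spans from 423 FPKM in ASTs to 0.1403 in P56-NPC, whereas Mmp15 stays between 5.88 and 16.2 FPKM in all 12 samples.

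The groups were compared 2 at a time with limma on log2(FPKM + 1), leaving out genes whose mean was under 1 FPKM in both. The threshold for a call was an adjusted p under 0.05, with the adjustment made over every gene tested. On this scale a fold change of a gene of low level is smaller than the ratio of its FPKM. Of the 45 members, 35 were tested in at least 1 comparison and 19 in all 5. A member that entered a comparison through a single group, because it was under 1 FPKM in the other, was bound to have its higher mean there. Such a member was not bound to be called. The counts of calls are therefore given with the share of all tested genes that were called, and nothing is drawn from them alone.

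Between A-iSCs and ASTs, 25 members were tested, 9 were called higher in A-iSCs and 14 lower, where 54.8% of all tested genes were called (25.2% higher, 29.6% lower). A log2 fold change beyond 1 was reached by 2 of the higher and 7 of the lower members, against 21.4% of all tested genes. With the pseudocount of 1, Timp1 fell the most, by 3.05 on the log2 scale, and Mmp12 rose the most, by 2.32. With a pseudocount of 0.1, Adamts14 fell further than Timp1, at -3.24 against -3.08. By class, of 12 MMPs tested, 6 rose and 6 fell, of 9 ADAMTS enzymes 2 rose and 6 fell, and of the 4 TIMPs 1 rose and 2 fell. Timp3 and Adamts9 were not called. The samples did not overlap between groups for 9 members that were higher and 13 that were lower, against 62.7% of all tested genes. The median log2 fold change was -0.67 over the tested members and -0.06 over all genes. In this comparison 4 members entered through A-iSCs alone and 5 through ASTs alone. When each sample was left out in turn, 17 of the 23 calls were made in every fit that tested the gene. Of these, Mmp24 was tested in 5 fits, since it was under the filter without replicate 3 of A-iSCs. Mmp15, Mmp19, Mmp28, Timp4, Adamts4 and Adamts10 lost their calls in some fits. Each of these 6 also lost its call under at least 1 other setting of the processing. The fewest calls, 17, were left without replicate 1 of ASTs.

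**Figure D2:**
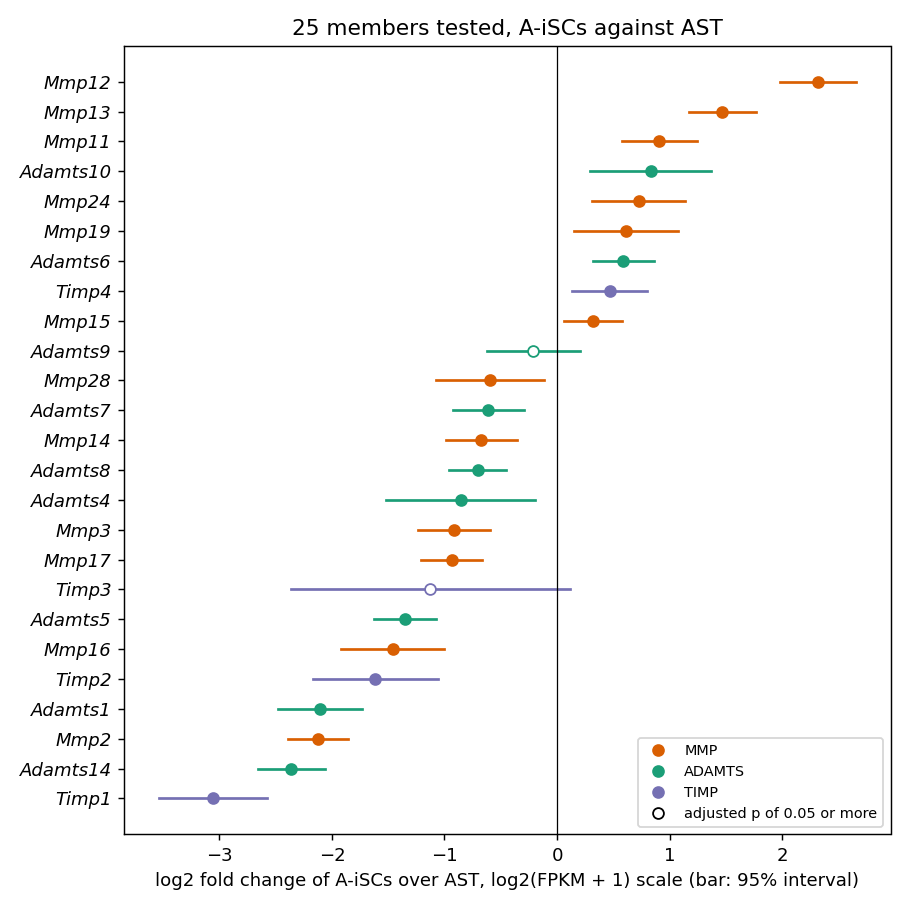
Log2 fold change of A-iSCs over ASTs for the 25 members tested, on the log2(FPKM + 1) scale, with the 95% interval of each as a bar and the class as the colour. Timp1 stands lowest at -3.05 and Mmp12 highest at 2.32, and the open points of Timp3 and Adamts9 mark the members that were not called.

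P56-NPC differed from ASTs in 8 members that were higher and 15 that were lower, of 25 tested, where 78.9% of all tested genes were called (39.1% higher, 39.8% lower). The samples of the groups were apart for all 23, as they were for 81.9% of all tested genes. The members called higher were Adamts4, Timp4, Adamts20, Mmp24, Mmp15, Adamts6, Adamts2 and Adamts10, of which Adamts2 (0.17, adjusted p = 0.139) and Adamts10 (0.10, adjusted p = 0.354, against 0.31 as reported) were not called with library-size scaling, under which Timp3 and Mmp17 were called lower. Adamts10 was also not called with upper-quartile scaling, without the filter on low values and in a fit of all 4 groups. Between P0-NPC and ASTs, 33 members were tested, 17 were called higher and 15 lower, where 79.0% of all tested genes were called (38.1% higher, 40.9% lower). The samples were apart for all 32, and for 81.4% of all tested genes. With a log2 fold change beyond 1 as a further condition, 12 higher and 9 lower members were left, against 38.9% of all tested genes. All 4 TIMPs were lower in P0-NPC, and of 17 ADAMTS enzymes 12 were higher. Of the 33 members, 12 had entered the test through P0-NPC alone, among them every higher ADAMTS enzyme but Adamts7, Adamts8 and Adamts10. The comparisons share the AST samples. In each comparison 1 call was lost in some fits without a sample, since Adamts10 in P56-NPC had an adjusted p of 0.00563 to 0.0691 and Adamts9 in P0-NPC one of 0.00352 to 0.0644. Timp3 in P56-NPC was called in 1 such fit, as given with that gene.

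Set against the NPC groups, A-iSCs were higher in 11 and lower in 7 of 23 members than P56-NPC, where 61.0% of all tested genes were called (30.1% higher, 30.9% lower). The samples were apart for 11 higher and 8 lower members, against 68.5% of all tested genes. Timp3, Mmp2, Mmp16, Adamts6 and Adamts10 were not called there. Against P0-NPC, A-iSCs were higher in 12 and lower in 18 of 33 members, where 65.1% of all tested genes were called (31.5% higher, 33.6% lower). Here they were apart for 12 higher and 17 lower members, against 70.7% of all tested genes. Of the ADAMTS enzymes 11 were lower and 1 higher of 15, and all 4 TIMPs were higher in A-iSCs. Here 13 members entered through P0-NPC alone and were bound to have a lower mean in A-iSCs, among them every lower ADAMTS enzyme but Adamts10. Both comparisons share the A-iSCs samples. With library-size scaling Mmp15 was not called against P56-NPC, and Adamts6 and Adamts10 were. Leaving out single samples changed 1 of the 18 calls against P56-NPC, that of Mmp28, and 5 of the 30 against P0-NPC, those of Timp2, Timp3, Mmp16, Mmp28 and Adamts1.

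**Figure D3:**
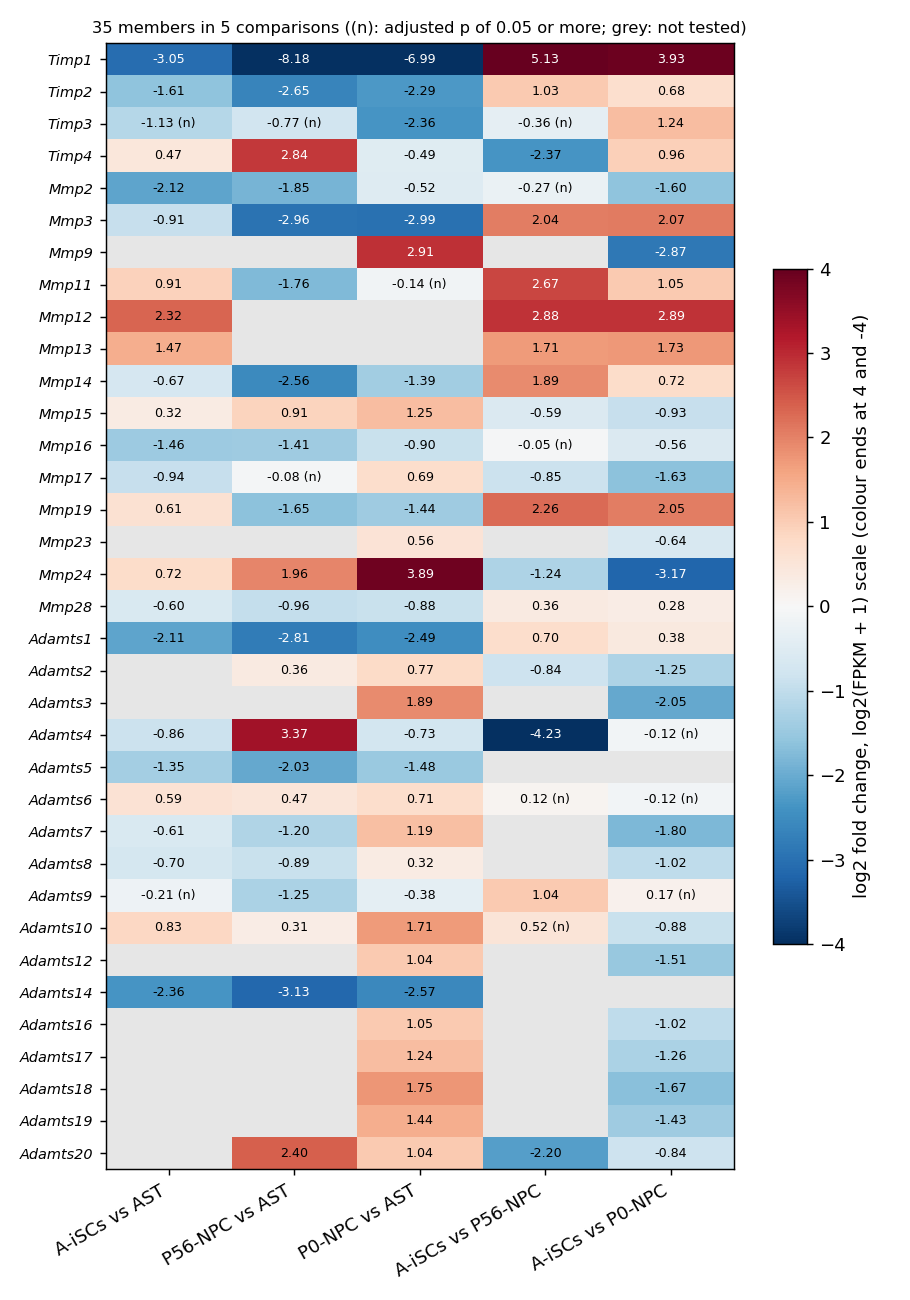
Log2 fold changes on the log2(FPKM + 1) scale for the 35 members tested, with a row for each gene and a column for each of the 5 comparisons, red for higher in the group named first and blue for lower. The mark (n) stands beside values that were not called and grey cells were not tested, and the block of grey cells among the ADAMTS enzymes shows the genes that reached 1 FPKM in P0-NPC alone.

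Among the inhibitors, Timp1 and Timp2 were the most abundant members of all in ASTs and fell in the spheres. Timp1, a soluble inhibitor that is induced in reactive glia, was at 321, 423 and 309 FPKM in the 3 AST samples. The A-iSCs samples gave 52.4, 38.4 and 34.2 FPKM for it. It was at 0.195, 0.1403 and 0.273 FPKM in P56-NPC and at 2.02, 1.35 and 1.92 in P0-NPC. The gene (ENSMUSG00000001131) lies on chromosome X, 20870166 to 20874735, plus strand, of GRCm38. No sample of any group overlapped those of another, and the order of the groups ran from ASTs over A-iSCs and P0-NPC to P56-NPC. On the log2 scale, the change of A-iSCs over ASTs was -3.05 (SE 0.20, adjusted p = 2.58e-05). A-iSCs still lay above both NPC groups, by 5.13 (adjusted p = 7.28e-07) over P56-NPC and by 3.93 (adjusted p = 1.51e-06) over P0-NPC.

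Timp2, which blocks MMPs and also takes part in the activation of the Mmp2 precursor by Mmp14, had the highest mean of the members in each group. ASTs gave 390.4, 337 and 419 FPKM and A-iSCs 118, 93.4 and 172. The P56-NPC samples were close together at 59.5, 60.4 and 59.9 FPKM, and P0-NPC gave 72.9, 75.4 and 82.7. ASTs stood above all the other samples, and the A-iSCs samples were the most spread for their level. By limma, the log2 fold change of A-iSCs over ASTs was -1.61 (SE 0.24, adjusted p = 0.00105). A-iSCs were higher than P56-NPC by 1.03 (adjusted p = 0.00452) and than P0-NPC by 0.68 (adjusted p = 0.0247), and the last of these calls was lost as any of the P0-NPC samples was left out, with an adjusted p of up to 0.0808.

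Timp3 is held in the matrix and blocks ADAMTS enzymes and ADAM sheddases besides MMPs. Its replicates were far apart for their level in both cultures, at 62.2, 26.03 and 61.5 FPKM in ASTs and 13.1, 14.4 and 46.6 in A-iSCs. P56-NPC gave 26.7, 30.95 and 23.3 FPKM and P0-NPC 10.2, 6.38 and 8.55. The AST sample of replicate 2 and the A-iSCs sample of replicate 3 lay within the range of the other group, so the groups overlapped. The log2 fold change of A-iSCs over ASTs was -1.13 (SE 0.53, adjusted p = 0.109) and was not called, whereas without replicate 3 of A-iSCs it was -1.69 with an adjusted p of 0.00878. It was also called with the replicate number as a block (adjusted p = 0.0159) and in a fit of all 4 groups (adjusted p = 0.0375). P56-NPC and ASTs differed by -0.77 (SE 0.33, adjusted p = 0.064), which was called without replicate 2 of ASTs, at -1.18 (adjusted p = 0.000129). It was also called with upper-quartile scaling (-0.92, adjusted p = 0.0324), library-size scaling (-1.10, adjusted p = 0.0168) and limma-voom on fragments (-0.75, adjusted p = 0.0469). A-iSCs and P56-NPC differed by -0.36 (SE 0.44, adjusted p = 0.512), which was called without replicate 3 of A-iSCs, at -0.92 (adjusted p = 0.000641). Over P0-NPC, A-iSCs were higher by 1.24 (SE 0.44, adjusted p = 0.0384), a call that was lost when any of the P0-NPC samples was left out. Replicate 3 of A-iSCs also had the highest sum of astrocyte markers in its group, 2466 FPKM against 1211 and 1502, and the part of those cells in the Timp3 value was not tested. In P0-NPC the sample with the lowest Timp3, replicate 2, also had the lowest sum of 5 choroid plexus markers, 742 FPKM against 3809 and 2301, which was not tested either. Timp3 lies inside Syn3 on the opposite strand and shares 21.3% of its exonic bases with that gene, which was at no more than 0.485 FPKM in any group mean.

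Timp4, the TIMP best known from heart and brain, moved the other way. It was at 2.803, 3.49 and 3.01 FPKM in ASTs and 3.93, 4.496 and 5.66 in A-iSCs. P56-NPC gave 26.8, 30.3 and 27.9 FPKM and P0-NPC 1.97, 2.16 and 1.63. The P56-NPC samples were thus far above all others, and A-iSCs were above ASTs with no overlap. On the log2 scale, the change over ASTs was 2.84 (SE 0.09, adjusted p = 1.94e-07) in P56-NPC and 0.47 (SE 0.14, adjusted p = 0.0273) in A-iSCs, the latter with an adjusted p of 0.0225 to 0.101 as samples were left out. Markers of several cell types were highest in the same group. The sum of 6 oligodendrocyte markers was at 10825 to 12337 FPKM in P56-NPC and no more than 75.9 FPKM elsewhere, and that of 4 markers of their precursors 119.9 to 141 and no more than 21.5. The sum of the 8 astrocyte markers was 2834 to 3072 FPKM in P56-NPC and 238 to 303 in P0-NPC, beside the lower values given above for ASTs and A-iSCs, and that of 5 ependymal markers was 221 to 286 FPKM in P56-NPC and no more than 73.98 elsewhere. The part of these cells in the level of Timp4 was not tested.

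Among the MMPs anchored in the membrane, Mmp14 was the most abundant in every group but P56-NPC, where Mmp15 was higher, and fell from ASTs to A-iSCs, while Mmp24 and Mmp15 rose and were highest in P0-NPC. Mmp14, the enzyme that cuts fibrillar collagen at the cell surface and activates the Mmp2 precursor, was at 64.1, 60.004 and 59.9 FPKM in ASTs. A-iSCs gave 43.7, 38.04 and 33.3 FPKM, P56-NPC 9.22, 10.4 and 9.07 and P0-NPC 23.2, 22.7 and 22.2. The gene (ENSMUSG00000000957) lies on chromosome 14, 54431612 to 54445364, plus strand, of GRCm38. The 4 groups did not overlap. The fold change of A-iSCs over ASTs was -0.67 (SE 0.13, adjusted p = 0.00438) on the log2 scale, that of P56-NPC -2.56 (adjusted p = 1.83e-07) and that of P0-NPC -1.39 (adjusted p = 1.63e-06).

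Mmp24 is found mainly in the nervous system, where it cuts N-cadherin. Its FPKM was 0.293, 0.211 and 0.448 in ASTs, 0.784, 1.105 and 1.72 in A-iSCs, 4.07, 4.52 and 3.799 in P56-NPC and 17.2, 20.7 and 17.8 in P0-NPC. The groups formed 4 steps without overlap, with P0-NPC on top. By limma, the log2 fold change over ASTs was 0.72 (SE 0.18, adjusted p = 0.0108) for A-iSCs, 1.96 (adjusted p = 1.88e-06) for P56-NPC and 3.89 (adjusted p = 5.41e-08) for P0-NPC. The sum of 8 neuron markers was 81.7 to 119 FPKM in ASTs, 37.5 to 61.3 in A-iSCs, 159.7 to 191 in P56-NPC and 816 to 999 in P0-NPC. Between A-iSCs and ASTs the markers went both ways. Of 4 tested, 2 rose in A-iSCs, Dcx from 0.0833 to 2.86 FPKM and Gad1 from 0.172 to 1.71, and 1 fell, Stmn2 from 53.8 to 7.16 FPKM. The part of neurons in the level of Mmp24 was not tested. Mmp24 shares 13.6% of its exonic bases with BC029722 on the opposite strand, whose means of 19.9, 15.6, 31.2 and 10.6 FPKM in ASTs, A-iSCs, P56-NPC and P0-NPC ran in another order. Whether the counting used strand is not given in the sources used here, so fragments in the shared bases could belong to either gene.

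Mmp15, a close relative of Mmp14, was the most even of the abundant members. It was at 6.38, 5.88 and 6.27 FPKM in ASTs, 7.34, 7.74 and 8.84 in A-iSCs, 11.9, 13.1 and 12.4 in P56-NPC and 16.2, 16.1 and 15.8 in P0-NPC. The steps were small and without overlap. The log2 fold change of A-iSCs over ASTs, 0.32 (SE 0.11, adjusted p = 0.0405), was near the threshold, and its adjusted p ran from 0.0447 to 0.114 as samples were left out. Mmp16, which also belongs to the transmembrane kind, had its highest mean in ASTs at 4.69 FPKM, against 1.12 in A-iSCs, 1.14 in P56-NPC and 2.07 in P0-NPC, and fell in A-iSCs by 1.46 on the log2 scale (adjusted p = 0.00066). Its call between A-iSCs and P0-NPC (-0.56, adjusted p = 0.04) had an adjusted p of 0.0012 to 0.124 as samples were left out. Mmp17, which is held by a lipid anchor, was at 2.51, 0.836, 2.33 and 4.66 FPKM in the same order of groups and was lowest in A-iSCs, with a log2 fold change of -0.94 over ASTs (adjusted p = 0.000449). Mmp25, the other enzyme with a lipid anchor, had no fragment in A-iSCs and 0.338, 0.427 and 0.363 FPKM in P0-NPC, at least 15.5-fold higher against the limit of 3 fragments per library.

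The gelatinases, which degrade denatured collagen and basement membrane, differed in ASTs, while both were higher in P0-NPC than in A-iSCs and P56-NPC. Mmp2 was at 13.8, 11.6 and 13.96 FPKM in ASTs and 2.33, 2.33 and 2.07 in A-iSCs. In P56-NPC it was at 3.01, 2.35 and 3.46 FPKM and in P0-NPC at 8.65, 8.87 and 9.01. ASTs were highest and P0-NPC next, and A-iSCs and P56-NPC were low and near each other. On the log2 scale, the change of A-iSCs over ASTs was -2.12 (SE 0.11, adjusted p = 1.09e-05), and against P56-NPC it was -0.27 (SE 0.13, adjusted p = 0.104), which was not called, with an adjusted p of 0.0369 to 0.307 as samples were left out and the call made without replicate 2 of P56-NPC. The difference from P56-NPC was also called in a fit of all 4 groups (adjusted p = 0.0472). Mmp9, the gelatinase of leukocytes and osteoclasts that growing vessels and neurons also make, was low everywhere but in P0-NPC. Its FPKM was 7.58, 5.62 and 8.84 in P0-NPC and reached no more than 0.212 in any of the other 9 samples. By limma, the log2 fold change of P0-NPC over ASTs was 2.91 (SE 0.15, adjusted p = 8.95e-07). P0-NPC also had the highest sum of 7 endothelial markers, 82.3 to 87.6 FPKM against no more than 8.89 in the other groups, where Cldn5 was at 0 in ASTs, and the lowest sum of 10 microglia markers, 128 to 151 FPKM. The part of these cells in the level of Mmp9 was not tested.

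The secreted collagenases, stromelysins, the metalloelastase and related enzymes are neighbours on chromosome 9. In the table, 9 members (Mmp13, Mmp12, Mmp1b, Mmp3, Mmp10, Mmp8, Mmp27, Mmp20 and Mmp7, in this order) lay between bases 7272514 and 7699585 of GRCm38, a stretch of 427 kb that held 13 genes and no other protein-coding gene. Many of these genes are known to be induced through AP-1, the pair of Fos and Jun proteins that binds the letters TGANTCA. Stretches of 100 bases before the start of the gene are shown for Mmp12, the member that rose the most from ASTs to A-iSCs, for its neighbours Mmp13, Mmp3 and Mmp10, which were added after their values were seen, and for Mmp14, Adamts1 and Timp1, the MMP and ADAMTS genes with the largest mean in any group, that of ASTs, and the member that fell the most with the pseudocount of 1. The sequences are those of RefSeq on GRCm38.p6, read in the direction of the gene, and capitals mark TGANTCA, which reads the same on both strands, and TATAAA, the TATA box, on the strand of the gene. The marks of the motifs did not overlap. For Mmp12 the windows of both annotated starts are given, the first cut short of the start by 16 bases that are exonic.
Mmp13 (chr9:7272414-7272513, plus strand): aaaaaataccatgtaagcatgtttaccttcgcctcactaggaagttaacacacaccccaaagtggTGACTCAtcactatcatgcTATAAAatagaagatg
Mmp12, first start (chr9:7344281-7344380, plus strand): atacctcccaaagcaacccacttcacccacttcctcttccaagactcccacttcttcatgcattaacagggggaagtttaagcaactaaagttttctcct
Mmp12, second start (chr9:7347274-7347373, plus strand): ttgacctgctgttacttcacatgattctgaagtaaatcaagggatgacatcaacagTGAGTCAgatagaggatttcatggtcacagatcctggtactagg
Mmp3 (chr9:7445722-7445821, plus strand): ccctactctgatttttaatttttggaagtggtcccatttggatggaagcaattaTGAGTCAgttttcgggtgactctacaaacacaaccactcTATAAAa
Mmp10 (chr9:7502242-7502341, plus strand): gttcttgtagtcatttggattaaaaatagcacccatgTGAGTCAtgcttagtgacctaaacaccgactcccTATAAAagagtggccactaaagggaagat
Mmp14 (chr14:54431498-54431597, plus strand): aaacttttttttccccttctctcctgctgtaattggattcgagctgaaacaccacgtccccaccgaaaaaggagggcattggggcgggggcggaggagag
Adamts1 (chr16:85803114-85803213, minus strand): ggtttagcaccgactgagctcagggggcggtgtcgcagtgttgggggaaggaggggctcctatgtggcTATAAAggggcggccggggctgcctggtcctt
Timp1 (chrX:20870066-20870165, plus strand): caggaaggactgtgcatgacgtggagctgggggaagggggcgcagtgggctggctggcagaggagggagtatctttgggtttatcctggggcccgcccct

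Over the full 250 bases before the start, the letters TGANTCA stood in 6.75% of the 32851 RefSeq promoters. Of the 31 members with a promoter in the table, 7 held them, all in the run on chromosome 9 (Mmp13, Mmp12, Mmp1b, Mmp3, Mmp10, Mmp20 and Mmp7), and 0 of the 22 members elsewhere. These neighbours are related in sequence, so their promoters are not independent of each other. TATAAA stood in 7.59% of all promoters and in those of 8 members. In Mmp13 the AP-1 letters began 35 bases and the TATA letters 16 bases before the start, in Mmp3 46 and 7 bases, and in Mmp10 63 and 29 bases. Mmp1b and Mmp20 held the AP-1 letters with no fragment in any sample, and the Mmp14 and Timp1 stretches held neither motif. The part of AP-1 in the levels of these genes was not tested.

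Along this run, Mmp12 and Mmp13 rose from ASTs to A-iSCs and Mmp3 fell. Mmp12, the macrophage metalloelastase, was at 0.379, 0.634 and 0.476 FPKM in ASTs and 7.16, 7.05 and 5.26 in A-iSCs. It was at 0.0239, 0.00861 and 0.00839 FPKM in P56-NPC and 0, 0 and 0.01003 in P0-NPC. All A-iSCs samples lay above every other sample, and the NPC groups were at the limit of detection, with 5 fragments over the 3 samples of P56-NPC and 2 over those of P0-NPC. The log2 fold change of A-iSCs over ASTs was 2.32 (SE 0.14, adjusted p = 1.86e-05). From the fragments summed over the 3 samples of each group and set against the size of the libraries, the ratio of A-iSCs to P0-NPC was 1843, with a 95% counting interval of 509.7 to 15223.

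Mmp13, collagenase 3, was also highest in A-iSCs and next in ASTs, with means of 0.215 ± 0.112 FPKM (SD, n = 3) in ASTs, 2.35 ± 0.278 in A-iSCs, 0.0216 ± 0.0373 in P56-NPC and 0.00881 ± 0.00764 in P0-NPC. On the log2 scale, the change of A-iSCs over ASTs was 1.47 (SE 0.13, adjusted p = 8.06e-05). Microglia markers moved with both genes between these groups. All 10 rose between ASTs and A-iSCs by the same test, and their sum was 209 to 239.9 FPKM in ASTs and 2072 to 2848 in A-iSCs. In P56-NPC, however, the sum was 801 to 855 FPKM, above that of ASTs, and all 10 were called higher than in ASTs, while Mmp12 and Mmp13 were below their AST level in every sample. No microglia marker was at 0 in any group, and their part in the level of Mmp12 and Mmp13 was not tested.

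The stromelysins of the run, Mmp3 and Mmp10, which cut laminin, fibronectin and proteoglycans and activate other MMPs, were highest in ASTs. Mmp3 was at 6.29, 7.12 and 7.44 FPKM in ASTs and 3.53, 3.62 and 2.57 in A-iSCs. It had 2 fragments in all of P56-NPC and 0 in P0-NPC. The cultured groups did not overlap, and the fall from ASTs to A-iSCs was 0.91 on the log2 scale (adjusted p = 0.00116). Against the limit of 3 fragments per library, Mmp3 was at least 109-fold higher in ASTs and at least 50.99-fold higher in A-iSCs than in P0-NPC. Mmp10 was lower still, at 1.18, 0.745 and 0.969 FPKM in ASTs and 0.144, 0.122 and 0.217 in A-iSCs, with no fragment in either NPC group, and was under the filter of the test. The levels of ASTs for Mmp10 were at least 9.19-fold higher than those of P56-NPC and at least 14.5-fold higher than those of P0-NPC.

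The other genes of the run were near the limit of detection. Mmp27 reached 0.202 FPKM in A-iSCs and had no fragment in the NPC groups. Mmp8, the collagenase of neutrophils, was at 0.299 FPKM at most, in P0-NPC. Mmp7, the matrilysin, had a fragment in a single P56-NPC sample. Neighbouring genes of the run thus had different orders of the groups, with A-iSCs on top for Mmp13, Mmp12 and Mmp27 and ASTs on top for Mmp3 and Mmp10. Mmp12 and Mmp1b overlap by 157 exonic bases on opposite strands, and no fragment was counted for Mmp1b.

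**Figure D4:**
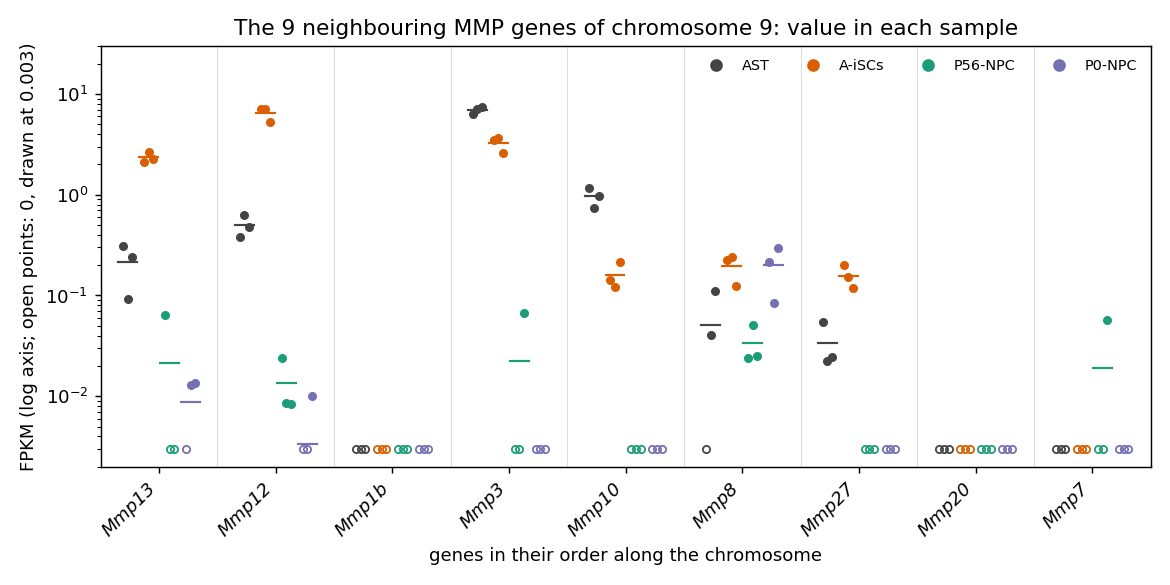
Expression in FPKM on a log axis for the 9 neighbouring MMP genes of chromosome 9 in their order along it, with a point for each sample, a line at the group mean and open points for values of 0. A-iSCs lie on top for Mmp13, Mmp12 and Mmp27 and ASTs for Mmp3 and Mmp10, and the points of the NPC groups are at 0 or under 0.1 FPKM for every gene shown but Mmp8.

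Of the MMPs elsewhere in the genome, Mmp11 and Mmp19 were highest in A-iSCs. Mmp11, a stromelysin that furin activates inside the cell, was at 7.17, 6.12 and 5.85 FPKM in ASTs and 12.5, 15.1 and 11.2 in A-iSCs. P56-NPC gave 1.14, 1.35 and 1.03 FPKM and P0-NPC 5.901, 5.12 and 6.05. The A-iSCs samples lay above all others, P56-NPC below all others, and ASTs and P0-NPC overlapped. By limma, the log2 fold change of A-iSCs was 0.91 (SE 0.14, adjusted p = 0.00136) over ASTs, 2.67 (adjusted p = 4.3e-06) over P56-NPC and 1.05 (adjusted p = 0.000279) over P0-NPC. Mmp11 shares 5.58% of its exonic bases with Chchd10 on the opposite strand, which was at 21.4 FPKM in A-iSCs and 67.5 in P56-NPC, where Mmp11 was lowest.

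Mmp19, which cuts proteins of the basement membrane, had means of 2.74 FPKM in ASTs, 4.85 in A-iSCs, 0.192 in P56-NPC and 0.381 in P0-NPC. Its log2 fold change was 0.61 over ASTs (adjusted p = 0.0319, and 0.0178 to 0.0946 as samples were left out), and 2.26 over P56-NPC (adjusted p = 6.18e-05). It shares 22.3% of its exonic bases with Tmem198b, at 6.62 FPKM in ASTs and 6.198 in A-iSCs. Mmp28, the epilysin, was highest in ASTs at 3.11 ± 1.12 FPKM (SD, n = 3) and at 1.65, 1.06 and 1.18 FPKM in A-iSCs, P56-NPC and P0-NPC. The AST samples were spread, and the call between A-iSCs and ASTs (adjusted p = 0.0411) had an adjusted p of 0.00361 to 0.129 as samples were left out. The small differences of A-iSCs from P56-NPC (0.36, adjusted p = 0.0145) and P0-NPC (0.28, adjusted p = 0.0463) gave 0.0184 to 0.0623 and 0.0546 to 0.13. Mmp28 shares 12.03% of its exonic bases with 1700020L24Rik on the opposite strand, whose means of 3.64, 1.76, 1.47 and 1.25 FPKM in the 4 groups were also highest in ASTs, so the reads of the 2 genes may not be separate. Mmp23 passed 1 FPKM in P0-NPC alone, at 1.35 FPKM, and Mmp21 did so in no group.

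The ADAMTS enzymes that cut proteoglycans were led by a different gene in the cultures and in the adult tissue. Adamts1, which cuts aggrecan and versican, was at 58.8, 41.4 and 58.8 FPKM in ASTs. A-iSCs gave 11.1, 11.2 and 11.9 FPKM, P56-NPC 6.58, 6.39 and 6.84 and P0-NPC 10.2, 6.996 and 8.55. The AST samples stood apart from all others, and A-iSCs were above the NPC groups by a small step. The log2 fold change of A-iSCs over ASTs was -2.11 (SE 0.16, adjusted p = 4.21e-05). Over P56-NPC it was 0.70 (adjusted p = 0.000349), and over P0-NPC it was 0.38, near the threshold with an adjusted p of 0.0402, and of 0.0217 to 0.132 as samples were left out. The sum of 9 mural and fibroblast markers was 1881 to 2267 FPKM in ASTs and no more than 143 elsewhere. Most of it was Acta2 at 1848 and Col1a1 at 158 FPKM, while Lum, Kcnj8 and Abcc9 were under 0.1 FPKM in ASTs. The part of such cells in the AST levels of Adamts1, Timp1 or Mmp2 was not tested.

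Adamts4, an aggrecanase that also cuts brevican, was the most abundant ADAMTS enzyme of P56-NPC. Its FPKM was 38.4, 41.7 and 36.7 there, 3.67, 1.702 and 3.55 in ASTs, 0.959, 0.673 and 1.95 in A-iSCs and 1.34, 1.31 and 1.31 in P0-NPC. The gene (ENSMUSG00000006403) lies on chromosome 1, 171250421 to 171260637, plus strand, of GRCm38. P56-NPC stood far above all other samples, and the samples of ASTs and A-iSCs overlapped. On the log2 scale, the change of P56-NPC over ASTs was 3.37 (SE 0.21, adjusted p = 5.15e-06), and that of A-iSCs over P56-NPC was -4.23 (SE 0.20, adjusted p = 4.26e-06). Between A-iSCs and ASTs it was -0.86 (SE 0.28, adjusted p = 0.0349), and the adjusted p ran from 0.0105 to 0.115 as samples were left out. A-iSCs and P0-NPC differed by -0.12 (SE 0.20, adjusted p = 0.615), which was not called, with a 95% interval of -0.59 to 0.35, and with an adjusted p of 0.0243 without replicate 3 of A-iSCs. The markers of oligodendrocytes, their precursors, astrocytes and ependymal cells had their highest sums in the same group, as given for Timp4, and Mobp was at 0 in ASTs. Their part in the level of Adamts4 was not tested.

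Adamts20 was the other proteoglycan-cleaving enzyme with its highest level in P56-NPC, at 4.53 FPKM against 1.16 in P0-NPC, 0.203 in A-iSCs and 0.0469 in ASTs. By limma, the log2 fold change of P56-NPC over ASTs was 2.40 (adjusted p = 3.54e-07). Adamts5, the other aggrecanase, had the pattern of Adamts1, with 3.71 FPKM in ASTs, 0.856 in A-iSCs, 0.1501 in P56-NPC and 0.692 in P0-NPC, and fell in A-iSCs by 1.35 on the log2 scale (adjusted p = 8.51e-05). Adamts9 was at 1.91, 1.54, 0.216 and 1.23 FPKM in the same order, and its log2 fold change of -0.21 between A-iSCs and ASTs was not called (adjusted p = 0.342). It shares 9.18% of its exonic bases with A730049H05Rik on the opposite strand, at 12.8 FPKM in ASTs and 1.15 in A-iSCs. Adamts8 was at 1.16 FPKM in ASTs, 0.329 in A-iSCs and 0.167 in P56-NPC, and at 1.701 in P0-NPC, where it was highest. Adamts15 stayed under 1 FPKM, with 0.758 in P0-NPC and no more than 0.0838 in the other group means.

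The procollagen N-propeptidases, which trim fibrillar procollagens, did not share an order of the groups. Adamts14 was at 9.07, 6.75 and 8.54 FPKM in ASTs and 0.783, 0.761 and 0.754 in A-iSCs. P56-NPC gave 0.0665, 0.02398 and 0.0234 FPKM and P0-NPC 0.564, 0.628 and 0.384. Only the AST samples passed 1 FPKM, and the log2 fold change of A-iSCs over ASTs was -2.36 (SE 0.13, adjusted p = 1.11e-05). Adamts2 and Adamts3 were instead highest in P0-NPC, with 2.15 and 4.101 FPKM, against 0.856 and 0.369 in ASTs, 0.328 and 0.227 in A-iSCs and 1.37 and 0.199 in P56-NPC. Their log2 fold changes of P0-NPC over ASTs were 0.77 (adjusted p = 0.000178) and 1.89 (adjusted p = 2.38e-06). Among the fibrillar procollagens, ASTs had 158 FPKM of Col1a1 and 2.39 of Col3a1, A-iSCs 2.98 and 0.985, and P0-NPC 34.2 and 34.9.

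The remaining ADAMTS enzymes were mostly genes of the newborn hippocampal suspension. Adamts10, which binds fibrillin microfibrils, was at 6.03, 6.895 and 5.62 FPKM in P0-NPC and 1.13, 1.19 and 1.23 in ASTs. A-iSCs gave 3.17, 4.21 and 1.704 FPKM and P56-NPC 1.77, 1.404 and 1.97. P0-NPC was above all other samples, ASTs below, and the lowest A-iSCs sample lay within the range of P56-NPC. The log2 fold change of A-iSCs over ASTs was 0.83 (SE 0.23, adjusted p = 0.0179), with an adjusted p of 0.000498 to 0.0538 as samples were left out. Over P56-NPC it was 0.52 (adjusted p = 0.0932), which passed the threshold without replicate 3 of A-iSCs, at 0.00233, and in a fit of all 4 groups, at 0.0296.

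Adamts7, which cuts the matrix protein Comp, was at 6.19, 5.47 and 5.69 FPKM in P0-NPC and 2.19, 1.66 and 2.06 in ASTs. It was at 0.956, 1.16 and 0.7304 FPKM in A-iSCs and 0.284, 0.327 and 0.251 in P56-NPC. The groups did not overlap, and the log2 fold change over ASTs was 1.19 (SE 0.10, adjusted p = 1.3e-05) in P0-NPC and -0.61 (SE 0.13, adjusted p = 0.00693) in A-iSCs. Adamts12, its closest relative, was at 2.03 FPKM in P0-NPC and 0.477 in ASTs, and at no more than 0.0611 in the means of the other groups. The less studied Adamts16, Adamts17, Adamts18 and Adamts19 passed 1 FPKM in P0-NPC alone. Adamts18 was at 2.41 FPKM there, Adamts19 at 1.74, Adamts17 at 1.51 and Adamts16 at 1.12. Their largest mean in another group was 0.3297 FPKM, that of Adamts16 in P56-NPC. Adamts19 had 1918 fragments in P0-NPC and 1 in ASTs. Adamts6 was even, between 0.664 FPKM in ASTs and 1.73 in P0-NPC, and did not differ by a called amount between A-iSCs and either NPC group. Adamts13, which cuts von Willebrand factor, was at no more than 0.0936 FPKM in any sample. Endothelial markers, 7 of 7, were called higher in P0-NPC than in ASTs, where 38.1% of all tested genes were. Of the 9 mural and fibroblast markers, 6 were called higher in P0-NPC, with Rgs5 at 38.6 and Dcn at 11.96 FPKM, and 2 lower, Acta2 at 3.04 and Col1a1 at 34.2 FPKM, against 1848 and 158 in ASTs. Of the markers called higher, Cldn5, Pecam1, Tek, Flt1, Rgs5, Kcnj8, Abcc9, Dcn and Lum were under 1 FPKM in ASTs and had entered through P0-NPC alone. The part of these cells in the ADAMTS levels of P0-NPC was not tested.

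Summed over each class, the TIMPs spanned a wider range between the groups than the MMPs and ADAMTS enzymes. The TIMP sum was 777 to 792 FPKM per sample in ASTs, 151 to 258 in A-iSCs, 111 to 122 in P56-NPC and 85.3 to 94.8 in P0-NPC. The MMP sum was 104 to 115 FPKM in ASTs, 79.2 to 88.04 in A-iSCs, 34.3 to 37.5 in P56-NPC and 88.8 to 90.1 in P0-NPC. The ratio of the sums, an RNA measure that says nothing of protein or activity, was 6.73 to 7.58 in ASTs and 1.75 to 3.26 in A-iSCs. In P56-NPC it was 3.19 to 3.303 and in P0-NPC 0.947 to 1.06, so that ASTs were highest, P0-NPC lowest, and A-iSCs and P56-NPC overlapped in between. With the ADAMTS sum added to the MMP sum, ASTs were still highest and P0-NPC lowest. A-iSCs, at 1.38 to 2.54, then lay above P56-NPC, at 1.24 to 1.28. The ADAMTS sum was lowest in A-iSCs, at 22.2 to 23.1 FPKM, against 61.2 to 84.6 in ASTs, 55.1 to 57.9 in P56-NPC and 42.5 to 47.3 in P0-NPC. A few genes made up most of each sum. Mmp14 gave 54.5 to 57.6% of the MMP sum in ASTs and 24.8 to 26.2% in P0-NPC. Adamts1 gave 67.7 to 70.1% of the ADAMTS sum in ASTs, and Adamts4 66.7 to 72.04% in P56-NPC. Timp2 gave 83.7 to 88.4% of the TIMP sum in P0-NPC. These sums were chosen with the values in view and are given without a test.

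**Figure D5:**
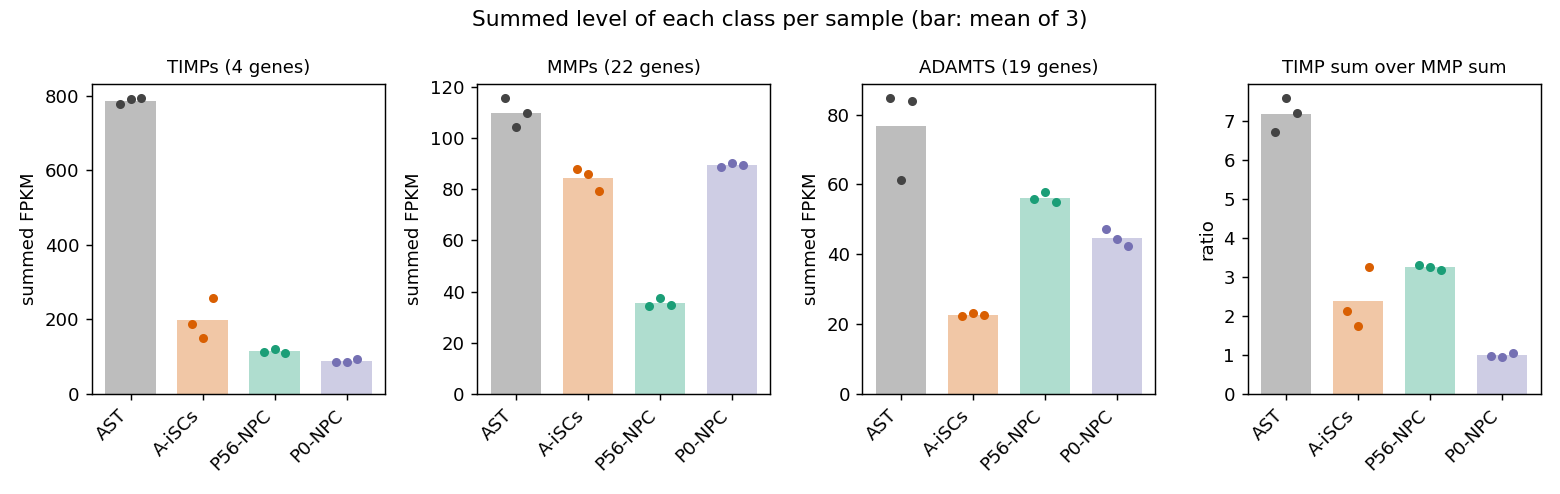
Summed FPKM of the 4 TIMPs, the 22 MMPs and the 19 ADAMTS enzymes and the ratio of the TIMP to the MMP sum, with a bar for the mean of each group and a point for each of its 3 samples, on axes that start at 0. The TIMP sum is 777 to 792 in ASTs and 85.3 to 94.8 in P0-NPC, and the ADAMTS sum is lowest in A-iSCs.

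Genes that work with these enzymes were listed as well, 70 in all. Between A-iSCs and ASTs, 55 of them were tested, 6 were called higher and 33 lower, beside the 54.8% of all genes called. Of 6 activators and convertases tested, 0 rose and 4 fell. Pcsk6, a proprotein convertase, went from 68.6 ± 14.8 FPKM (SD, n = 3) in ASTs to 4.16 ± 1.01 in A-iSCs, with a log2 fold change of -3.75 (SE 0.21, adjusted p = 1.22e-05). Plau, the urokinase that turns plasminogen into plasmin, went from 25.01 to 9.48 FPKM (-1.31, adjusted p = 0.000411). Furin, the convertase of the membrane-type enzymes, was at 10.6 and 8.14 FPKM and was not called (adjusted p = 0.0976).

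Other inhibitors and clearance genes had 1 higher and 3 lower calls of 6 tested. A2m, a wide-range protease trap in the blood, rose from 11.8 FPKM in ASTs to 96.4 in A-iSCs (2.87, adjusted p = 0.000193). Reck, an inhibitor held in the membrane, was at 2.704 and 1.48 FPKM (-0.56, adjusted p = 0.0216). Of 7 surface partners tested, 0 rose and 5 fell, among them Cd44, the hyaluronan receptor that docks Mmp9 and Mmp14, from 105 to 31.3 FPKM. Of 9 ADAM sheddases, 1 rose and 4 fell. The gene that rose was Adam8, which leukocytes and microglia make, from 7.38 to 34.04 FPKM (2.03, adjusted p = 0.000153), beside the rise of the microglia markers. Of 4 ADAMTS-like genes, 0 rose and 3 fell.

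Of 11 substrates tested, 2 rose from ASTs to A-iSCs and 9 fell. Both that rose were lecticans of the brain matrix, while another lectican, Vcan or versican, fell from 6.80 to 4.08 FPKM. Bcan, or brevican, went from 8.92 ± 0.8601 FPKM (SD, n = 3) to 53.5 ± 4.204 (2.46, adjusted p = 7.99e-06), and Ncan, or neurocan, from 67.5 to 97.1 (0.51, adjusted p = 0.0101). Collagens, fibronectin and Sparc were among those that fell, with Col4a1 of the basement membrane going from 87.8 to 5.902 FPKM and Fn1 from 299 to 66.3. Adamts4, which cuts brevican, was not higher in A-iSCs, and in P56-NPC both stood highest, Bcan at 219 FPKM.

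Of 12 AP-1, ETS and Runx factors, which are known to drive MMP genes, 2 rose and 5 fell between ASTs and A-iSCs. Fos went from 40.2 ± 2.33 FPKM (SD, n = 3) to 116 ± 35.1 (1.47, adjusted p = 0.00114), and Junb from 34.3 ± 6.95 to 104 ± 31.9 (1.54, adjusted p = 0.00181). Their relatives Fosl1 and Fosl2 fell, from 6.97 to 1.33 FPKM (-1.81, adjusted p = 0.000289) and from 18.2 to 8.296 (-1.05, adjusted p = 9.77e-05). Jun was at 91.9 and 68.9 FPKM and was not called. Runx2, which drives Mmp13 in bone, went from 3.79 to 0.884 FPKM, against the direction of Mmp13.

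In the other comparisons the counts over the 70 genes stand beside the share of all tested genes that was called. P56-NPC was higher than ASTs in 10 and lower in 40 of 57 tested (78.9% of all genes called), and P0-NPC was higher in 13 and lower in 38 of 59 (79.0%). A-iSCs were higher than P56-NPC in 28 and lower in 16 of 52 (61.0%), and higher than P0-NPC in 29 and lower in 18 of 56 (65.1%). Between A-iSCs and P0-NPC, 2 substrates were higher and 10 lower of 14, while all 7 surface partners and all 4 ADAMTS-like genes tested were higher in A-iSCs. Klk6, a protease of oligodendrocytes, was at 17.7 FPKM in P56-NPC, at 0.0326 in ASTs and at 0 in A-iSCs and P0-NPC.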

How the data were processed

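RNA of 12 samples was sequenced, 3 per group, from NEBNext Ultra libraries read as pairs on an Illumina HiSeq. The values deposited by the authors are FPKM, in 1 table with gene lengths in bases. The unit is named in neither the table nor the paper and was inferred, because value times length gave whole fragment counts in every sample for 100% of values, within 0.02. The submitters' processing notes name Bowtie 0.12.2 and mm8 without a role, but 54985 of the 55240 gene identifiers shared with GENCODE M21, and all 45 members, had GRCm38 positions, so that build was used. The library sizes implied by the steps were 0.744 to 1.22 times the fragments counted, so the deposited FPKM already carried a scaling between samples.

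The members and the lists of roles, partners and markers were chosen with earlier results of these data known. Groups were taken from the sample labels. Each comparison was fitted with limma 3.58.1 (R 4.3.3; lmFit, eBayes with a trend) on log2(FPKM + 1), on the 2 groups compared, over genes with a mean of at least 1 FPKM in either group, with Benjamini-Hochberg adjustment over all genes tested and calls at an adjusted p under 0.05. DESeq2, the tool of the study, was not used, since the values are FPKM. On data simulated for A-iSCs against ASTs, with 12612 genes of which 200 were changed, 188 were called, 0 of them in the wrong direction. In addition, 23 unchanged genes were called. The simulation gave all genes a common dispersion and changed far fewer genes than were called in the data. It therefore does not give the error rate of the calls. Alternatives were a pseudocount of 0.1, no filter, upper-quartile and library-size scaling, a model of all 4 groups, a replicate block, limma-voom on the recovered fragments, a log2 fold change beyond 1 and leaving out each sample. Values in every sample are given for TIMPs and members with a group mean of at least 5 FPKM, group means for those of at least 1, and ranges for the rest. Sequences are shown for the highest member of each class and the called members with the largest and smallest fold change of A-iSCs over ASTs, where the bases lie outside exons, which left out Timp2. The counting floor is 3 fragments. Tables and figures were made in Python 3.11.15 (pandas 2.3.3, numpy 2.4.6, matplotlib 3.10.9). Promoters came from a RefSeq table that held 31 of the 45 members. No sample was left out.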

Additional observations from a re-analysis of the deposited data

How the results depend on the processing

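Over 139 fold changes (each member in each comparison that tested it), 973 fits under the other settings kept direction and call in 924, lost the call in 35, gained it in 10 and turned the direction in 4. The 833 fits without a sample did so in 773, 50, 6 and 4. The counts of members called, 23, 23, 32, 18 and 30 for A-iSCs against ASTs, P56-NPC against ASTs, P0-NPC against ASTs, A-iSCs against P56-NPC and A-iSCs against P0-NPC, ran from 17 to 22, 22 to 25, 31 to 33, 17 to 21 and 25 to 30 as each sample was left out. Asking for a log2 fold change beyond 1 left 9 calls in A-iSCs against ASTs (2 higher, 7 lower) and 21 in P0-NPC against ASTs (12 higher, 9 lower). None of the turned values was called. With library-size scaling they were 0.11 for Mmp11 in P0-NPC over ASTs, and 0.13 for Mmp2, 0.23 for Mmp16 and 0.18 for Timp3 in A-iSCs over P56-NPC. As each sample was left out, Mmp16 in A-iSCs over P56-NPC ran from -0.27 to 0.081, and Adamts4 in A-iSCs over P0-NPC from -0.36 to 0.051. The cause was not tested.

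Scaling moved the median of all genes. With upper-quartile scaling it was -0.17, -0.17 and -0.16 for A-iSCs, P56-NPC and P0-NPC over ASTs, against -0.06, -0.03 and -0.07 as reported. With library-size scaling it was 0.13, -0.34 and 0.21, and 0.49 for A-iSCs over P56-NPC against 0.03. With upper-quartile scaling the members called higher and lower in A-iSCs over ASTs were 6 and 15, and the higher share of all calls was 37.9%. With library-size scaling that share went from 46.0% to 60.4%, from 49.5% to 37.7%, from 48.2% to 59.4% and from 49.4% to 74.4% in these 4 comparisons, and the members called higher and lower went from 9 and 14 to 9 and 12, from 8 and 15 to 6 and 17, from 17 and 15 to 17 and 14, and from 11 and 7 to 14 and 6.

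The labels do not say whether the replicate numbers pair the samples, and correlations over 3 numbers cannot decide it. Same-numbered deviations of A-iSCs and ASTs correlated at -0.41, 0.35 and 0.45, and 2 of 3 numbers correlated best with their own. With the replicate block, 133 of the 139 fold changes, called or not, stayed on their side of the threshold, 5 calls were lost and 1 was gained, that of Timp3 in A-iSCs over ASTs (-1.13, adjusted p = 0.0159 by limma). The block left 23, 23, 32, 17 and 27 members called. With 3 samples a group and no counting of molecules, genes under about 0.1 FPKM could not be ranked.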
